A study of Mus with 6 samples.

Results

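The report covers the genes for chromatin modifiers and remodelers in activated CD4+ T cells, and how their RNA differed when VEGF-B was neutralized. Members were chosen by name: lysine demethylases (Kdm), lysine methyltransferases (Kmt, Setd, Setdb and Ezh), histone deacetylases (Hdac), the acetyltransferases Ep300 and Crebbp, bromodomain readers (Brd), the CHD and SWI/SNF-type remodelers (Chd and Smarc) and the TET dioxygenases. Of the 10995 protein-coding genes listed, 80 had such a name, and the 74 with a mean of at least 1 FPKM over the 6 libraries were the members. FPKM are fragment counts divided by transcript length and by the mapped fragments of the library, so that levels can be set side by side between genes. The table names no unit, and FPKM was inferred from the authors' software and the decimals of the values. All 74 members were among the 8816 genes tested.

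DNA in the nucleus is wound around histones, and the members write, erase and read marks on them or move them along the DNA. Methyltransferases and acetyltransferases add marks to histone tails, demethylases and deacetylases remove them, and bromodomains bind acetylated lysines. Remodelers of the CHD, SWI/SNF and ISWI families use ATP to slide or evict nucleosomes, and TET enzymes oxidize methylated cytosine. In T cells these enzymes are known for opening and closing cytokine, effector and memory genes after activation.

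The cells were naive T cells, that is, T cells before their first contact with antigen, from the spleens of wild-type (WT) mice whose strain and age the labels do not give. In both groups they were stimulated over 3 days by anti-CD3 at 5 μg/mL, anti-CD28 at 2 μg/mL and IL-2 at 100 U/mL. One group of 3 libraries also received an antibody against VEGF-B (anti–VEGF-B, 1 μg/mL), a growth factor of the VEGF family, and the other group of 3 received normal IgG (1 μg/mL), so that the comparison asks what the neutralizing antibody changed in cells that were all activated. Nothing in the labels says whether replicates came from separate animals, so the p-values measure the spread between these samples only.

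The FPKM summed to between 260058 and 276622 per library, and these values carry no read depth, so the counting error behind a level is unknown. All 7 T cell and CD4 markers were measured (Cd4 at 64.0 to 74.6 FPKM), and their sum was 425 to 468 FPKM with anti–VEGF-B and 439 to 517 with IgG. Within that list Cd3e and Cd5 were lower with anti–VEGF-B (log2 fold changes -0.51 and -0.38). Of both CD8 markers, Cd8a did not exceed 0.182 FPKM in any library, but Cd8b1 was at 2.27 to 4.51 FPKM, with overlapping groups. Of 4 NK cell markers 2 were listed, Klrk1 at up to 0.0943 FPKM and Nkg7 at 1.01 to 2.06 FPKM, also with overlapping groups. Of 5 B cell markers 1 was listed (Cd79b, up to 1.34 FPKM), and of 5 erythroid markers 0 were. The sum of the 4 listed myeloid markers was 11.4 to 12.9 FPKM with anti–VEGF-B and 12.8 to 28.8 with IgG. The highest sum was in IgG replicate 3, where Lyz2 reached 16.4 FPKM against 3.26 to 4.19 in the other libraries. The part of these markers in the members' values was not tested. In bulk samples fewer cells of a type and less RNA per cell cannot be told apart.

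Neutralizing VEGF-B left most chromatin genes without a called difference, and those that differed were mostly lower. The genes with the largest falls were Chd4 and Hdac1, which encode the ATPase and a deacetylase of the NuRD complex, followed by Smarcc2, a scaffold of SWI/SNF, and Kmt5a, a histone H4 methyltransferase. The clearest rise was in Hdac5, a deacetylase that moves between nucleus and cytoplasm, followed by the demethylase Kdm7a. On log2(FPKM + 1), tested with limma over all 8816 genes and called at a Benjamini-Hochberg adjusted p under 0.05, 16 members were lower, 3 were higher and 55 were not called. Of all genes tested, 28.7% were called, 23.8% lower and 4.87% higher, and the 25.7% of members called were close to that background. The median log2 fold change (anti–VEGF-B minus IgG) was -0.14 over the members and -0.15 over all genes tested. Of the members 66.2% lay below 0, and of all genes 71.2%. The quartiles were also alike, from -0.32 to 0.03 in members and from -0.34 to 0.03 in all genes. The groups did not overlap for 26 members with anti–VEGF-B below IgG and 6 above, or 43.2% of members. Of all genes tested 49% did not overlap, 38.5% with anti–VEGF-B below and 10.5% above.

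How the libraries were scaled decided the balance of rises and falls. On the FPKM as deposited the median of all genes was itself shifted, to -0.15. The shift varied with level: the median was -0.22 under 5 FPKM, -0.14 from 5 to 20 FPKM and 0.01 at 20 FPKM or more. Changes of members under 20 FPKM can therefore also be read against a median below 0. For those at 20 FPKM or more, such as Chd4, Hdac1 and Kdm7a, that median was 0.01. Their fold changes still moved with the 4 other scalings given below. Chd4 then ranged from -0.87 to -0.68, Hdac1 from -0.66 to -0.50 and Kdm7a from 0.47 to 0.63. The cause of the shift was not tested. With each library centred on its median, 7 members were lower and 11 higher (9.15% and 15.5% of all genes tested). Quantile normalization and cyclic loess normalization, which bring the libraries' distributions together, each left 9 lower and 3 higher. Of all genes tested 10.4% were then lower and 9.98% higher by the former and 10.6% and 9.66% by the latter. Scaling to the Actb level of each library left 8 lower and 2 higher (14.8% and 4.14% of all genes). At an unadjusted p under 0.05 with a log2 fold change beyond 0.5, 7 members were lower and 1 higher, against 11.3% and 1.4% of all genes. The 8 members called higher after median centring and not on the FPKM as deposited included Kdm3a, Kdm4c, Kdm5b, Brd1, Kmt5b, Smarcb1 and Tet2. Of the 19 called members, 9 passed the threshold under all 4 other scalings (median, quantile, loess and Actb), namely Chd3, Chd4, Hdac1, Smarcc2, Kmt5a, Setd7, Brd7, Hdac5 and Kdm7a. Of these, 5 also passed in each fit that left out 1 library: Chd4, Hdac1, Kmt5a, Brd7 and Hdac5. The same counts over all 2528 called genes are not given here. So the counts of 9 and 5 do not set the members apart from other called genes. None of the 19 changed direction under another scaling, with another pseudocount or without 1 library. Another filter, variance model, call rule or replicate block leaves the fold change as it is, so direction could not change there. The 19 were also picked for lying away from 0 in the same values.

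**Figure D1:**
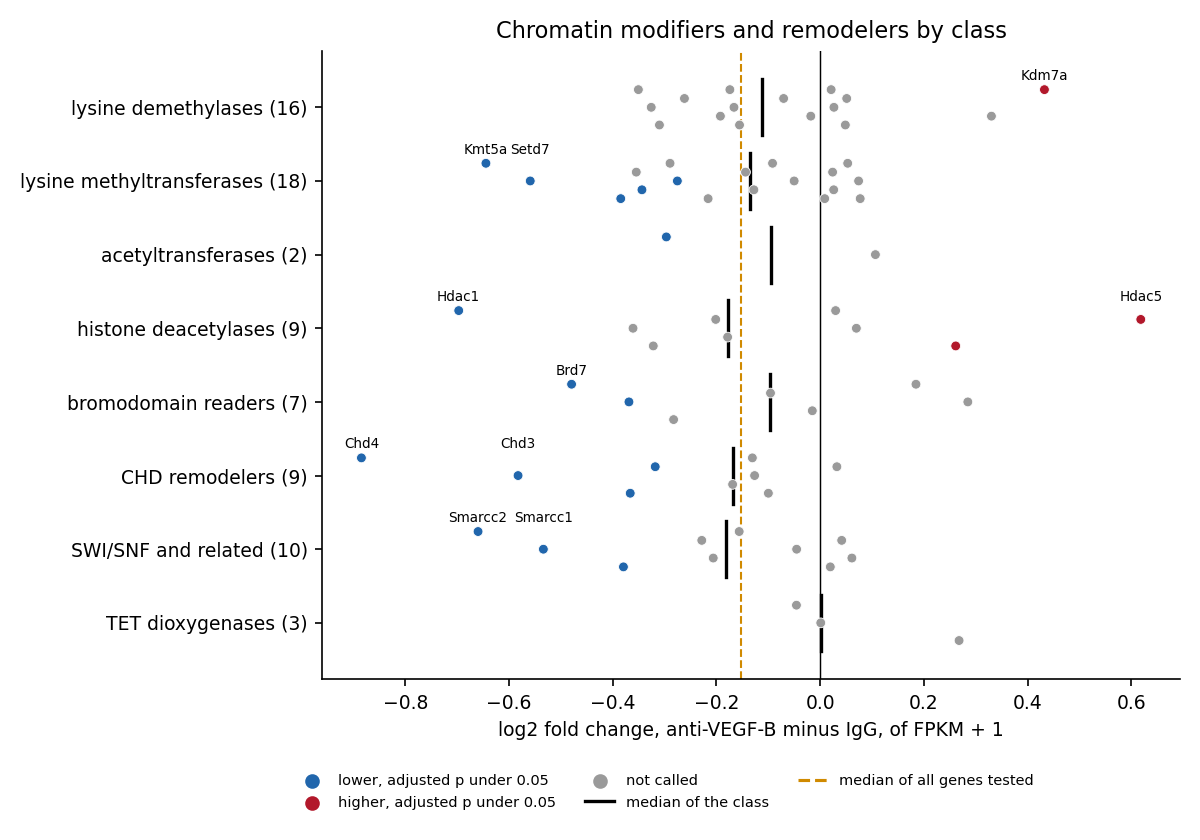
Log2 fold change (anti–VEGF-B minus IgG, of FPKM + 1) of the 74 members by class, 1 point per gene, with the number of members of each class in brackets; black bars are class medians, the dashed line is the median of all genes tested (-0.15), and blue and red points were called lower and higher. The class medians lie between -0.18 and 0.0012, and the points farthest from 0 are Chd4, Hdac1, Smarcc2 and Kmt5a on the low side and Hdac5 on the high side.

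Single libraries carried some of the calls. IgG replicate 2 held the highest value for 39 of the 74 members, and anti–VEGF-B replicates 3 and 1 the lowest for 28 and 19. This was not particular to the members. The median log2(FPKM + 1) of all genes tested was also highest in IgG replicate 2 (3.01). It was lowest in anti–VEGF-B replicates 3 and 1 (2.68 and 2.72). The members summed to 1239, 1438 and 1274 FPKM with anti–VEGF-B and to 1319, 1446 and 1396 FPKM with IgG, so the sums overlapped. Without anti–VEGF-B replicate 3 the count was 4 lower and 1 higher (7.88% and 1.86% of all genes tested), and without anti–VEGF-B replicate 1 it was 7 and 5 (15.5% and 3.54%). Without IgG replicate 2 it was 8 and 1 (12.5% and 2.93%). Without IgG replicate 3, the library with the high Lyz2, 12 members were lower and 2 higher (17.3% and 3.72%).

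The histone deacetylases moved in opposite directions within the family. Of 9 members, 1 was lower and 2 were higher, with a median log2 fold change of -0.18. That is 33.3% called, where 28.7% of all genes tested were. Hdac1, a class I deacetylase shared by the NuRD, Sin3 and CoREST corepressor complexes (ENSMUSG00000028800.15, chr4:129516104-129542713 on GRCm38), was at 24.6, 25.03 and 22.5 FPKM with anti–VEGF-B and at 37.2, 45.1 and 36.8 with IgG. All 3 anti–VEGF-B libraries lay below the lowest IgG library, and IgG replicate 2 stood highest. The mean fell from 39.7 ± 4.7 to 24.0 ± 1.4 FPKM (SD, n = 3), a log2 fold change of -0.70 (SE 0.09, adjusted p = 0.00491 in limma). Hdac2, the closest paralog of Hdac1 and a subunit of the same complexes, was at 24.0, 27.2 and 26.7 FPKM against 21.6, 20.9 and 21.8. Here each anti–VEGF-B library lay above each IgG library, with a log2 fold change of 0.26 (SE 0.08, adjusted p = 0.0356). This call was lost in 5 of the 6 fits without 1 library and when libraries were scaled to Actb (adjusted p up to 0.118 over the alternatives).

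Hdac1 exceeded Hdac2 in all IgG libraries, and among the anti–VEGF-B libraries only in replicate 1. The ratio of Hdac1 to Hdac2 within a library was 1.03, 0.921 and 0.844 with anti–VEGF-B and 1.72, 2.16 and 1.69 with IgG. Such a ratio within a library is free of any factor that scales the whole library. Hdac3, the catalytic subunit of the NCoR and SMRT corepressors, had values of 9.68, 10.8 and 11.0 FPKM against 11.1, 13.8 and 11.2, without overlap but also without a call (log2 fold change -0.18, adjusted p = 0.216), and median centring turned its sign to 0.02. Hdac8, the remaining class I member, was at 1.23 ± 0.11 against 1.81 ± 0.50 FPKM and was not called (adjusted p = 0.103).

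Among the class IIa deacetylases, which bind MEF2 factors and shuttle out of the nucleus on signalling, Hdac5 rose. Hdac5 (ENSMUSG00000008855.17, chr11:102194432-102230166) was at 21.3, 24.1 and 22.9 FPKM with anti–VEGF-B and at 15.5, 13.2 and 14.8 with IgG. The lowest anti–VEGF-B library stood well above the highest IgG library. The log2 fold change was 0.62 (SE 0.09, adjusted p = 0.00491), the largest rise among the members, and it was called under all 4 other scalings and without each library in turn. Hdac7, the class IIa enzyme with the highest level, which is known for its role in thymocytes, was at 30.1, 32.3 and 29.4 FPKM against 35.7, 48.8 and 35.5. Its groups did not overlap, IgG replicate 2 stood apart at the top, and the call was narrowly missed (log2 fold change -0.36, SE 0.12, adjusted p = 0.0506). An opposite-strand gene, Slc48a1, overlaps the Hdac7 locus in the table. The ratio of Hdac5 to Hdac7 was 0.709 to 0.778 with anti–VEGF-B and 0.270 to 0.434 with IgG. Hdac4, the third class IIa member, had a log2 fold change of 0.07, and the class IIb enzymes Hdac6 and Hdac10 stood at -0.20 and 0.03, with overlapping groups for each.

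The CHD remodelers had the highest share of falls among the classes with more than 3 members, 4 of 9, with 0 higher. Of all genes tested 23.8% were lower. With median centring and with scaling to Actb 2 of 9 were called lower. Of the log2 fold changes 8 of 9 lay below 0, as did 71.2% of those of all genes. Their median was -0.17, which is close to the median of all genes. Chd4 (ENSMUSG00000063870.12, chr6:125095981-125130591), the main NuRD ATPase, was at 29.3, 36.8 and 25.4 FPKM with anti–VEGF-B and at 49.8, 66.6 and 54.5 with IgG. Replicate 2 was the highest library in both groups, yet the groups stayed well apart. The mean was 30.5 ± 5.8 against 57.0 ± 8.7 FPKM, and the log2 fold change of -0.88 (SE 0.14, adjusted p = 0.00657) was the largest fall among the members. Chd3, which takes the place of Chd4 in part of the NuRD complexes, was at 8.08, 9.86 and 7.26 FPKM against 11.7, 15.3 and 12.1. It fell by 0.58 on the log2 scale (SE 0.13, adjusted p = 0.0145), and this call was lost only without anti–VEGF-B replicate 3 among the fits that left out a library. The ratio of Chd4 to Chd3 was 3.50 to 3.73 with anti–VEGF-B and 4.24 to 4.49 with IgG.

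The other called CHD members were Chd1 and Chd8, which are named here outside the rule for named genes. Chd8, a remodeler known as a negative regulator of β-catenin, was at 4.62, 4.96 and 4.86 FPKM against 5.67, 6.95 and 6.17. The groups did not overlap, but the call (log2 fold change -0.32, adjusted p = 0.0417) was lost under all 4 other scalings and in 5 of 6 fits without 1 library. Chd1, which binds methylated histone H3 at active genes, was at 15.2, 15.4 and 13.6 FPKM against 19.3, 20.01 and 18.5 (log2 fold change -0.37, SE 0.08, adjusted p = 0.0141). This call was lost with median centring (adjusted p = 0.141), when scaled to Actb and without anti–VEGF-B replicate 3. The locus given for Chd1, chr17:15704967-17394898, spans 1690 kb where RefSeq (GRCm38.p6) gives the gene 67.6 kb. It covers 3 other listed genes, Rgmb, Zfp960 and Zfp97, and the part of this locus in the value was not tested. Chd1l, Chd2, Chd6, Chd7 and Chd9 were not called, with log2 fold changes from -0.17 to 0.03 and overlapping groups. Of these Chd2 had the highest level (32.3 FPKM) and Chd6 and Chd9 the lowest (1.91 and 1.93 FPKM).

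Of the 10 SWI/SNF-type members, 3 were lower and 0 were higher (30% called, where 28.7% of all genes tested were). The called genes, Smarcc2, Smarcc1 and Smarcd2, encode core subunits that hold the complex together, and whether core subunits and ATPases differed was not tested. Smarcc2 (BAF170) was at 5.45, 6.43 and 4.53 FPKM with anti–VEGF-B and at 7.38, 11.8 and 8.72 with IgG. Its paralog Smarcc1 (BAF155) was at 3.32, 2.89 and 3.33 FPKM against 4.05, 6.38 and 4.92. In both genes the groups did not overlap and IgG replicate 2 was the highest library. Smarcc2 fell by 0.66 on the log2 scale (SE 0.17, adjusted p = 0.01996) and Smarcc1 by 0.53 (SE 0.14, adjusted p = 0.0241). Smarcc2 was called under all 4 other scalings and lost without anti–VEGF-B replicates 1 or 3, whereas Smarcc1 was called under 1 of 4 and in 2 of 6 fits without a library. A gene on the opposite strand, Dhx30, overlaps the Smarcc1 locus. The within-library ratio of Smarcc1 to Smarcc2 overlapped between the groups (0.450 to 0.735 against 0.540 to 0.564).

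Smarcd2, another core subunit with a known role in granulocytes, was at 10.7, 12.04 and 10.2 FPKM against 14.2, 16.1 and 13.6. Its groups did not overlap (log2 fold change -0.38, SE 0.10, adjusted p = 0.0214), but none of the other 4 scalings called it. The ATPase gene Smarca4 (BRG1) was at 13.1, 13.2 and 12 FPKM against 14.3, 16.5 and 14.7, likewise without overlap, and was not called (log2 fold change -0.23, adjusted p = 0.0763). Smarca2 (BRM) was lower in level, with a mean of 3.44 FPKM, and had a log2 fold change of -0.05 that turned positive under each of the other 4 scalings. The ISWI ATPase Smarca5 was the SWI/SNF-type member with the highest level (34.4 FPKM) and stood at -0.16 (adjusted p = 0.147), a value that median centring turned to 0.04. Smarcb1 and Smarce1 lay at 0.06 and 0.04. Smarce1 was nearly flat, at 12.6 to 12.7 FPKM with anti–VEGF-B and 12.2 to 12.3 with IgG. Smarcd1 was not called at -0.21, nor was Smarcal1, an annealing helicase of stalled replication forks, at 0.02.

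**Figure D2:**
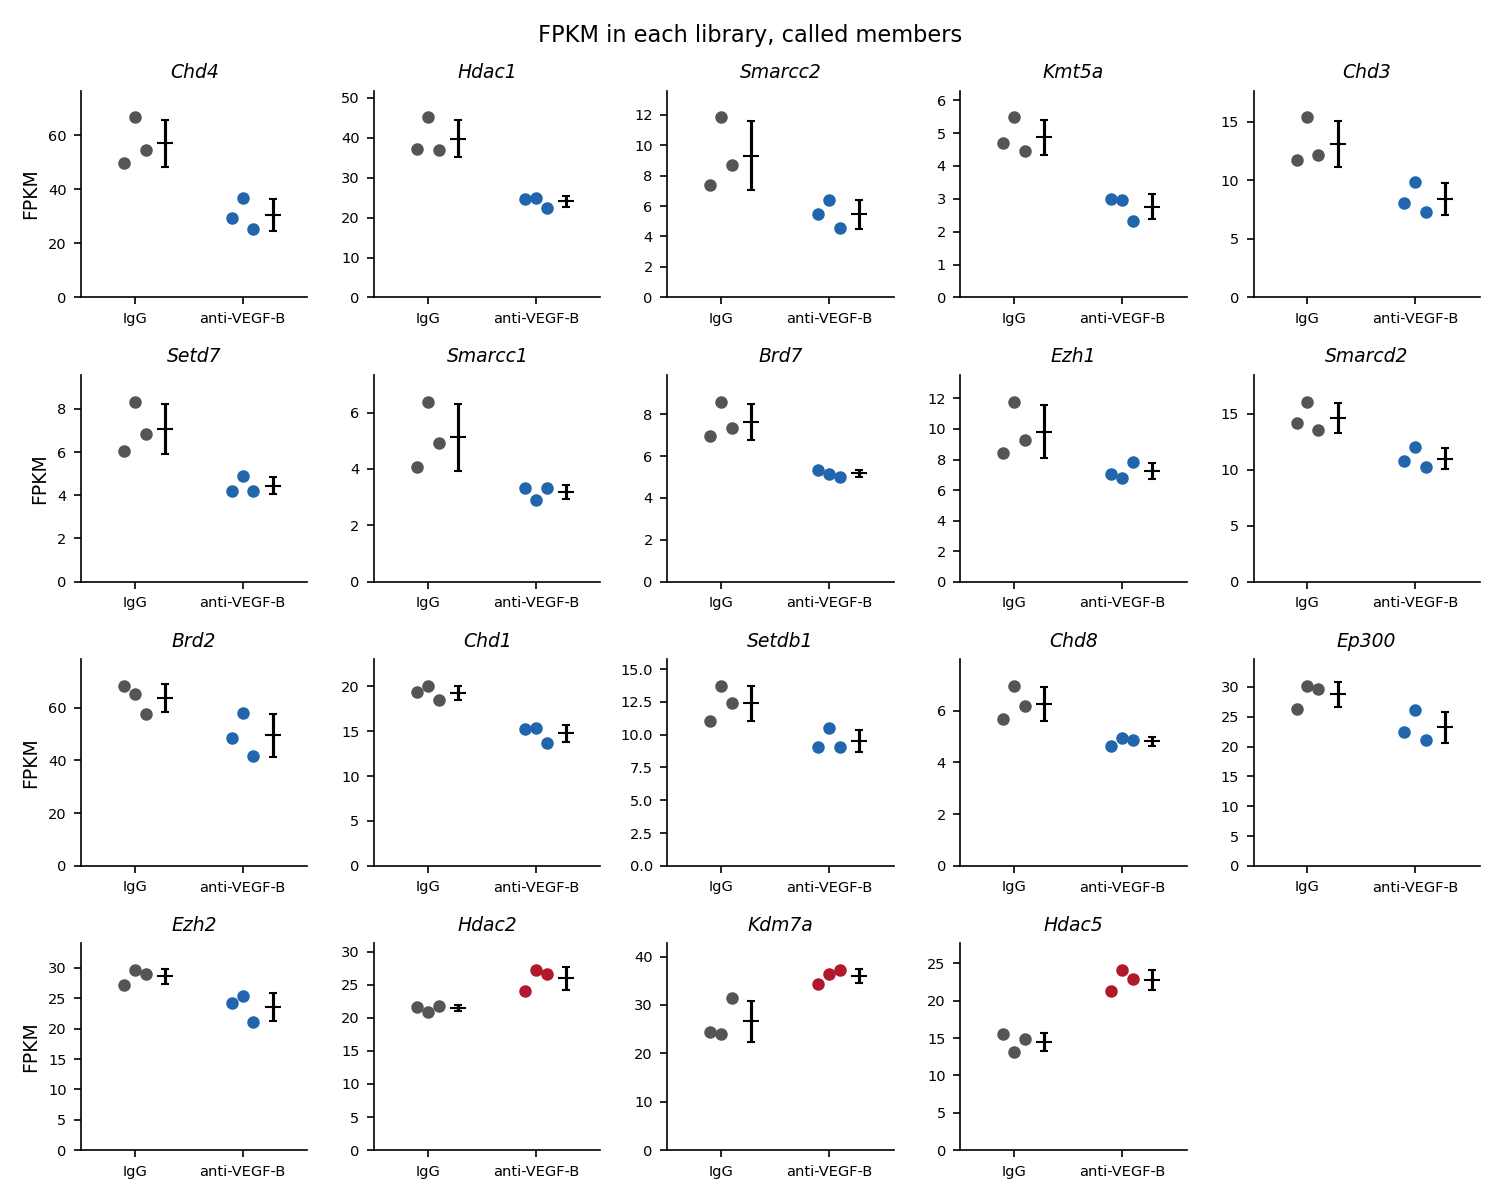
FPKM (vertical axis, from 0) of each of the 19 called members in each library, with IgG in grey and anti–VEGF-B in blue (called lower) or red (called higher); horizontal and vertical bars are the mean and SD of 3 libraries. The groups are apart in every panel but Brd2, and the middle IgG point, replicate 2, is the highest IgG library in most of the panels of lower genes.

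Among the 18 lysine methyltransferases, 5 were lower and 0 higher (27.8% called, where 28.7% of all genes tested were). Kmt5a (ENSMUSG00000049327.17, chr5:124439930-124462308), which places the single methyl mark on histone H4 that accompanies mitosis and DNA replication, was at 3.00, 2.97 and 2.32 FPKM with anti–VEGF-B and at 4.71, 5.47 and 4.45 with IgG. The groups did not overlap, and the log2 fold change of -0.64 (SE 0.12, adjusted p = 0.00848) was called under every other scaling and without each library. Kmt5b and Kmt5c, which extend the mark that Kmt5a starts, had log2 fold changes of 0.07 and 0.01 and were not called. Setd7, a methyltransferase of histone H3 and of many other proteins, was at 4.22, 4.92 and 4.21 FPKM against 6.03, 8.34 and 6.84. No anti–VEGF-B library reached the lowest IgG library, and the gene fell by 0.56 on the log2 scale (SE 0.12, adjusted p = 0.0136). It was called under the other 4 scalings and lost only without anti–VEGF-B replicate 3 among the fits without 1 library.

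Both Ezh genes, the alternative catalytic subunits of Polycomb repressive complex PRC2, were called lower, but neither call survived another scaling. Ezh2, the form known to rise in dividing cells, was at 24.2, 25.4 and 21.1 FPKM with anti–VEGF-B and at 27.3, 29.6 and 29.1 with IgG. Ezh1 was at 7.08, 6.79 and 7.85 FPKM against 8.45, 11.8 and 9.25. The groups were apart in both genes, with log2 fold changes of -0.28 (adjusted p = 0.0441) and -0.38 (adjusted p = 0.0438). Over the alternatives the adjusted p reached 0.525 for Ezh2 and 0.205 for Ezh1. Ezh2 exceeded Ezh1 by a ratio of 2.68 to 3.74 with anti–VEGF-B and of 2.51 to 3.23 with IgG, which overlapped. Setdb1, which silences retroelements together with KAP1, was at 9.06, 10.5 and 9.08 FPKM against 11.1, 13.7 and 12.4 (log2 fold change -0.34, adjusted p = 0.0362) and was likewise not called under any of the other 4 scalings. The opposite-strand gene Cers2 overlaps its locus.

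Of the 5 Kmt2 genes 0 were called, where 28.7% of all genes tested were. Kmt2a, Kmt2b, Kmt2c and Kmt2d encode large enzymes of the COMPASS family, which methylate histone H3 at promoters and enhancers. Kmt2a was at 12.6, 16.5 and 13.3 FPKM against 15.7, 20.7 and 18.7, so that the groups overlapped (log2 fold change -0.35, adjusted p = 0.0617). Kmt2b, Kmt2c and Kmt2d lay between 0.02 and 0.08, and Kmt2e, the methyltransferase-family member with the highest level (45.1 FPKM), at -0.09. Setd2, which marks the bodies of transcribed genes, stood at -0.13 (adjusted p = 0.306), and median centring turned its sign, as it did that of Kmt2e. Setd1a, Setd1b, Setd3, Setd5 and Setdb2 were not called, with log2 fold changes from -0.29 to 0.05.

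Of the 16 lysine demethylases, 0 were lower and 1 was higher, where 28.7% of all genes tested were called. The count was the same under 3 of the 4 other scalings, but median centring called 4 higher, and the fit with a replicate block and that without IgG replicate 1 each called 2 lower and 1 higher. Kdm7a, which removes repressive methyl marks from histone H3, was at 34.3, 36.5 and 37.2 FPKM with anti–VEGF-B and at 24.4, 23.9 and 31.4 with IgG. IgG replicate 3 came nearest to the anti–VEGF-B libraries, and the groups did not overlap. The log2 fold change was 0.43 (SE 0.11, adjusted p = 0.0188). It was called under each other scaling but not without anti–VEGF-B replicate 3 or IgG replicate 2.

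Kdm3a, a demethylase induced by hypoxia in many cells, had the highest level of all members, at 153, 206 and 178 FPKM against 142, 126 and 157. Anti–VEGF-B replicate 1 fell inside the IgG range, and the log2 fold change of 0.33 (SE 0.12, adjusted p = 0.0627) was not called. The pair that opens genes silenced by PRC2 was not called either: Kdm6b was at 25.02, 32.0 and 24.8 FPKM against 29.1, 37.9 and 31.6 (log2 fold change -0.26, adjusted p = 0.136). The log2 fold change of Kdm6a was 0.03. Within the Kdm5 family, which removes methyl marks from promoters, Kdm5a, Kdm5b and Kdm5c lay at -0.07, 0.05 and -0.02. The signs of Kdm5a and Kdm5c changed with the scaling. Of the other 9 demethylases (log2 fold changes from -0.35 to 0.05), Kdm4a had the lowest adjusted p (0.0549). The groups of Kdm1a, Kdm1b, Kdm4a and Kdm8 did not overlap, with anti–VEGF-B below IgG in each. Over all 16 demethylases the groups of 5 did not overlap (31.25%), against 49% of all genes tested.

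Ep300 and Crebbp are closely related acetyltransferases that mark enhancers, and Ep300 alone was called. Ep300 was at 22.5, 26.1 and 21.1 FPKM with anti–VEGF-B and at 26.3, 30.1 and 29.7 with IgG. The highest anti–VEGF-B library came just under the lowest IgG library, and the log2 fold change of -0.30 (SE 0.10, adjusted p = 0.0475) was close to the threshold and was not called under any other scaling. Crebbp, at 15.6, 19.1 and 17.8 FPKM against 15.1, 15.9 and 17.4, overlapped between the groups (log2 fold change 0.11, adjusted p = 0.416). The ratio of Ep300 to Crebbp was 1.19 to 1.44 with anti–VEGF-B and 1.70 to 1.89 with IgG.

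Of the 7 bromodomain readers, 2 were lower and 0 higher (28.6% called, where 28.7% of all genes tested were). Brd7, a subunit of the PBAF form of SWI/SNF (ENSMUSG00000031660.13, chr8:88331039-88362194), was at 5.35, 5.15 and 5.02 FPKM with anti–VEGF-B and at 6.97, 8.59 and 7.34 with IgG. The anti–VEGF-B libraries were close to each other and all below the IgG libraries. The fall of 0.48 on the log2 scale (SE 0.10, adjusted p = 0.0121) was called under each other scaling and without each library. Brd9, the reader of the non-canonical SWI/SNF form, lay at -0.10 and was not called. Brd2 and Brd3 belong to the BET proteins, which bind acetylated histones at active genes. Brd2 was at 48.6, 58.2 and 41.6 FPKM against 68.2, 65.1 and 57.8, and anti–VEGF-B replicate 2 overlapped IgG replicate 3 (log2 fold change -0.37, adjusted p = 0.0463). This call was lost with median centring (adjusted p = 0.329), when scaled to Actb and in 4 of the 6 fits without 1 library. Brd3, at 3.52 ± 0.32 against 4.50 ± 0.46 FPKM, was not called (adjusted p = 0.0766). Brd1, named outside the rule, was at 42.4, 54.1 and 45.2 FPKM against 37.4, 37.3 and 40.5 (log2 fold change 0.28, adjusted p = 0.0542).

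None of the 3 TET dioxygenases was called, where 28.7% of all genes tested were. At an unadjusted p under 0.05 in limma there was likewise none, and of the scalings median centring alone called Tet2. Tet2, the TET gene with the highest level, was at 19.1, 16.6 and 20.3 FPKM with anti–VEGF-B and at 12.5, 17.2 and 16.6 with IgG. IgG replicate 1 was the low library, and the groups overlapped (log2 fold change 0.27, SE 0.13, adjusted p = 0.136). Tet3 (10.2 FPKM) and Tet1 (2.18 FPKM) had log2 fold changes of -0.05 and 0.0012, and the sign of Tet3 turned under each of the other 4 scalings.

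**Figure D3:**
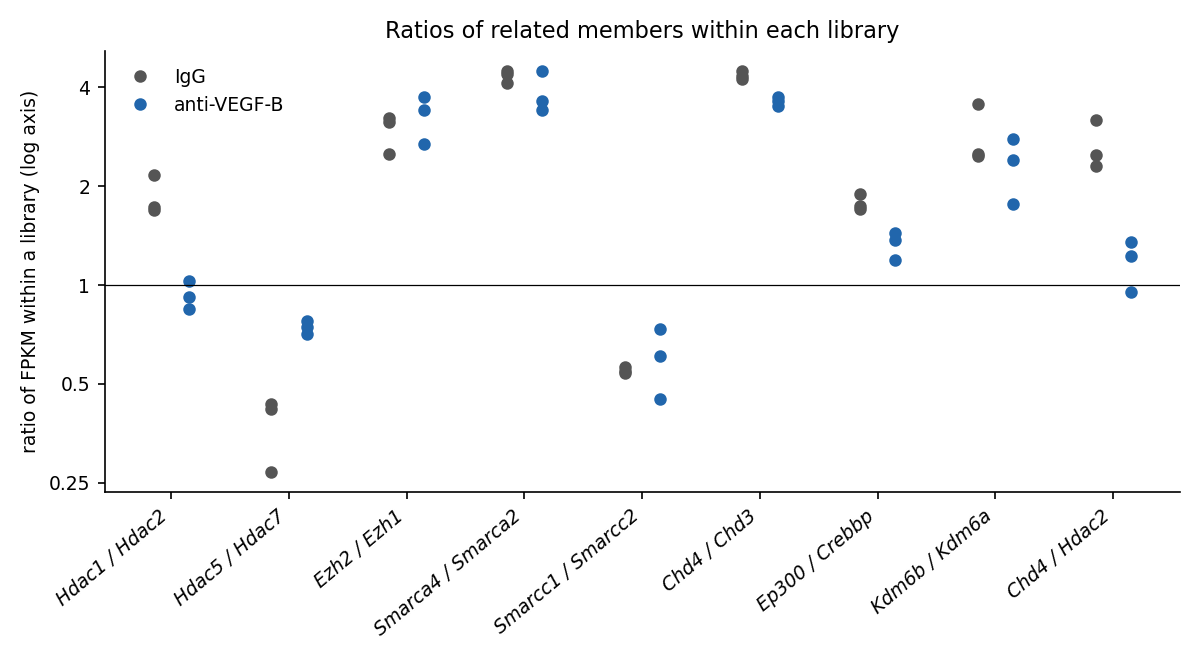
Ratio of FPKM of related members within each library (log axis), 1 point per library, IgG in grey and anti–VEGF-B in blue. The groups are apart for 5 of 9 ratios, among them Hdac1 to Hdac2 (0.844 to 1.03 with anti–VEGF-B, 1.69 to 2.16 with IgG), and overlap for Ezh2 to Ezh1, Smarca4 to Smarca2, Smarcc1 to Smarcc2 and Kdm6b to Kdm6a.

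Of the 9 ratios given here, all chosen with the levels known, 5 did not overlap between the groups. For these the two-sided exact permutation test gave p = 0.1, the smallest that 3 libraries against 3 allow (0.18 after Benjamini-Hochberg adjustment over the 9), so none could pass a threshold of 0.05. The other non-overlapping ratio was Chd4 to Hdac2 (1.18 ± 0.20 against 2.66 ± 0.46). Where both genes of a ratio were called in opposite directions, its direction follows from those calls.

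**Figure D4:**
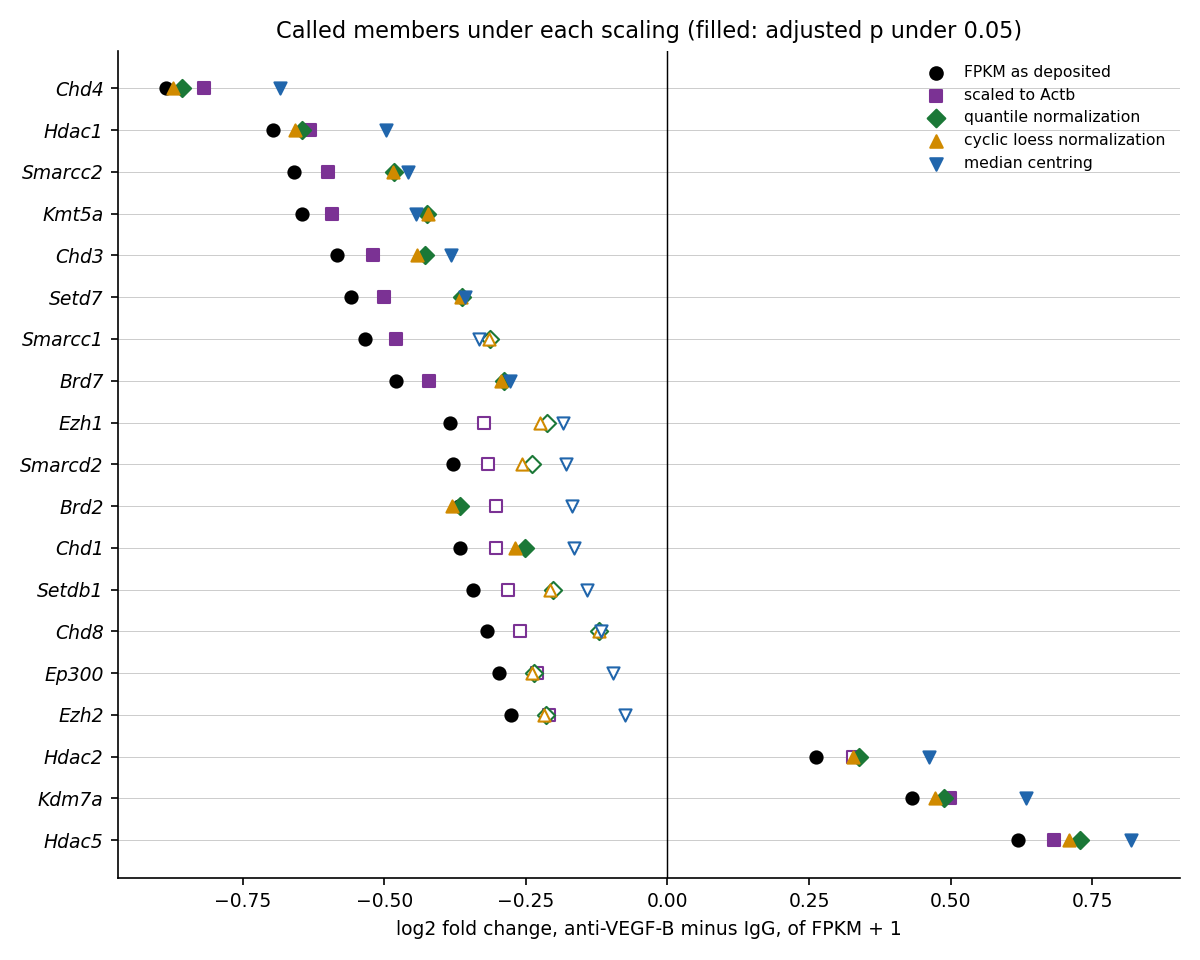
Log2 fold change (anti–VEGF-B minus IgG, of FPKM + 1) of the 19 called members on the FPKM as deposited and under 4 other scalings of the libraries; filled symbols passed an adjusted p of 0.05 and open symbols did not. The symbols of each gene stay on the same side of 0, median centring gives the smallest falls and the largest rises in most rows, and Ezh1, Smarcd2, Setdb1, Chd8, Ep300 and Ezh2 are filled only on the FPKM as deposited.

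Members differed from other genes in features that the naming rule did not use. Their median level was 13.7 FPKM against 6.10 over all genes tested, with a range of 1.28 to 160 FPKM. Their genes were also long: the median locus spanned 50.4 kb against 22.3 kb, and 85.1% of members lay above the median span of all genes. When all genes were split into 3 groups of equal size by span, 48 members fell in the longest group, 21 in the middle and 5 in the shortest. Calls were unevenly spread over these groups, with 6 lower and 1 higher among the 48 longest and 8 lower and 2 higher among the 21 of middle span. Of the 5 shortest 2 were lower and 0 higher. Over all genes the longest group had 19.9% lower and 4.63% higher, the middle group 27.3% and 5.14%, and the shortest 24.2% and 4.83%. Across the 74 members the Spearman correlation of span with log2 fold change was 0.23, and across all genes 0.05. Both are given as descriptions, since genes share libraries and are not independent replicates. Both took Chd1 at its listed span of 1690 kb, where RefSeq gives 67.6 kb.

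By level, 2 of 18 members under 5 FPKM were lower and 0 higher, against 9 lower and 1 higher of 32 between 5 and 20 FPKM and 5 lower and 2 higher of 24 at 20 FPKM or more. Over all genes 27.3% were lower and 1.98% higher under 5 FPKM, 24.8% and 4.05% from 5 to 20 FPKM, and 14.7% and 12.4% at the highest of these levels, where the median log2 fold change was 0.01. The members just inside the limit of 1 FPKM were Setdb2 (1.28 FPKM), Kdm8 (1.43) and Hdac8 (1.52). Below it were Setd6 (0.819 FPKM), Smarcad1 (0.758), Hdac11 (0.521) and Setd4 (0.336), and 2 opposite-strand neighbours that share only the name, Chd3os and Brd3os, at 0.274 and 0.0912 FPKM.

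The members work in complexes with other proteins, and 134 partner genes were listed by complex or function, of which 125 were tested. Of these 37 were lower and 6 higher (34.4% called, where 28.7% of all genes were), with a median log2 fold change of -0.16. Grouped by complex after the values were known, the NuRD genes, members and partners together, had 7 of 13 lower (Chd3, Chd4, Hdac1, Mbd2, Mbd3, Mta2 and Rbbp7) and 1 higher (Hdac2). That is 61.5% called, where 28.7% of all genes tested were. The median of the 13 was -0.26. Under the other 4 scalings Chd3, Chd4, Hdac1, Mbd2 and Rbbp7 kept their calls. Hdac2 was called under 3 of them, and Mbd3 and Mta2 under 2. Mta2 was called in only 1 of the 6 fits without 1 library. Mbd2, which brings the complex to methylated DNA, was at 32.1, 31.1 and 30.0 FPKM with anti–VEGF-B and at 39.6, 46.8 and 40.2 with IgG (log2 fold change -0.43, adjusted p = 0.0103). The histone-binding subunit Rbbp7, shared with PRC2, was at 14.2, 15.5 and 11.8 FPKM against 18.6, 28.1 and 19.1 (-0.61, adjusted p = 0.0216). Both sets of libraries were apart between the groups. The Sin3 corepressor genes were mixed. Sap18 and Sap30 rose, while Sin3a was called lower (log2 fold change -0.39, adjusted p = 0.0332). Sin3b (-0.04) and Sap130 (-0.003) were not called. The calls of Sap18 and Sap30 were kept under every other scaling, and that of Sin3a under none. Sap30 was at 556, 557 and 605 FPKM against 424, 342 and 414 (log2 fold change 0.55, adjusted p = 0.00766), and Sap18 rose by 0.59 (adjusted p = 0.00469). Over the 20 deacetylase partners 5 were lower and 3 higher (40% called), with a median of -0.03.

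Around the other members, BAF and PBAF genes had 8 of 25 lower and 0 higher, and PRC2 genes 3 of 11 lower and 1 higher. COMPASS genes had 2 of 17 lower and 0 higher. The shares called were 32%, 36.4% and 11.8%, where 28.7% of all genes were called. The BAF partners with the lowest p were Bcl11b, a T cell identity factor (-0.50), Ss18 (-0.40) and Phf10 (-0.34). Jarid2, which guides PRC2, was at 64.1, 74.0 and 75.1 FPKM with anti–VEGF-B and at 49.4, 53.7 and 54.4 with IgG, a rise of 0.43 on the log2 scale (adjusted p = 0.0101). So Ezh1 and Ezh2 were called lower while this partner was called higher, and the core subunits Eed (0.03) and Suz12 (0.15) were not called. Of the BAF partners, Bcl11b passed under the other 4 scalings, Ss18 under 3 and Phf10 under 2. In COMPASS the called partners were Wdr82 (-0.58), which also passed under the other 4 scalings, and Hcfc1 (-0.38), which passed under 0 of 4. The 18 PRC1 genes had 7 lower and 2 higher (50% called), with the lowest p in Pcgf6 (-0.62), Cbx6 (-0.72) and Pcgf3 (-0.47). Of the falls, Pcgf6, Cbx6 and Cbx7 passed under all 4 other scalings. Pcgf3 passed under 2 of them, Ring1 under 1, and Bmi1 and Pcgf2 under 0. Both rises, Pcgf5 (0.30) and Cbx8 (0.32), passed under all 4.

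**Figure D5:**
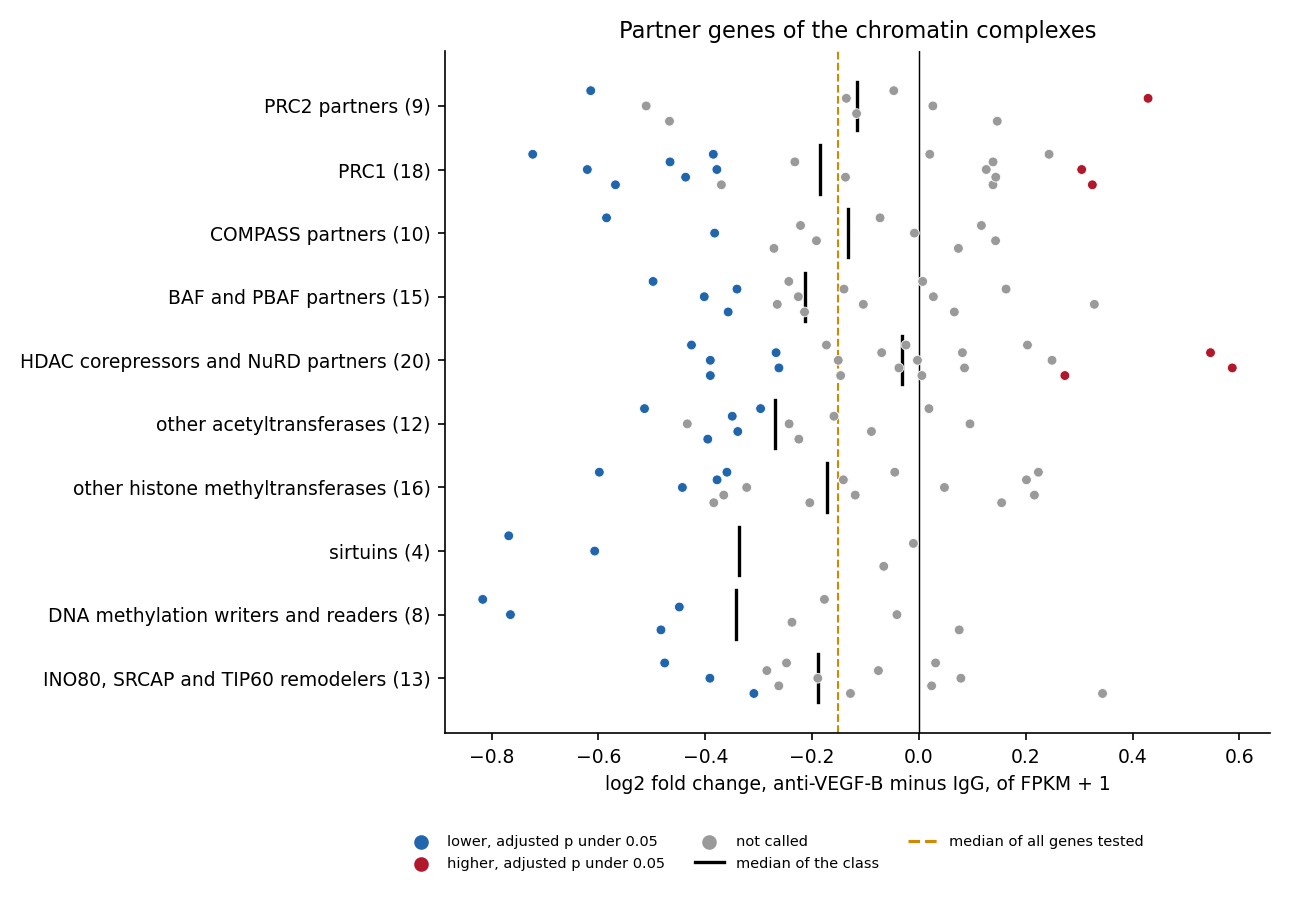
Log2 fold change (anti–VEGF-B minus IgG, of FPKM + 1) of the 125 tested partner genes by list, 1 point per gene, with the number tested in brackets; black bars are list medians, the dashed line is the median of all genes tested (-0.15), and blue and red points were called lower and higher. The lowest points are in the DNA methylation list (Uhrf1, -0.82, and Dnmt1, -0.76) and the sirtuins (Sirt6, -0.77), and the list of deacetylase corepressors holds the highest (Sap18, 0.59).

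The partner genes with the largest falls were Uhrf1 and Dnmt1, which maintain DNA methylation, and the sirtuin Sirt6. Dnmt1, which copies methylation to new DNA strands, was at 3.59, 4.08 and 3.12 FPKM with anti–VEGF-B and at 6.60, 8.10 and 5.82 with IgG. Uhrf1, which brings Dnmt1 to the replication fork, was at 2.34, 2.22 and 2.50 FPKM against 4.66, 6.32 and 3.98. Neither gene overlapped between the groups (log2 fold changes -0.76 and -0.82, adjusted p = 0.00731 and 0.00756), and both were called under each other scaling and without each library. Of the 8 genes tested in that list 4 were lower and 0 higher. Dnmt3a, a de novo methyltransferase, lay at 0.08 (SE 0.26) with overlapping groups. It was at 5.40, 6.99 and 5.74 FPKM against 7.13, 7.89 and 3.08, so the value leaned on IgG replicate 3. Dnmt3b, in the same list, averaged under 1 FPKM and was not tested. Its levels were 0.608, 0.336 and 0.364 FPKM against 0.921, 1.29 and 0.836, without overlap. Among 4 sirtuins, deacetylases that depend on NAD, Sirt1 (-0.61) and Sirt6 (-0.77) were lower, also under the other 4 scalings. Of 12 other acetyltransferases 5 were lower, with the lowest p in Ncoa3 (-0.51), Kat2b (-0.40) and Hat1 (-0.30), of which Ncoa3 alone was called under the other 4 scalings. Of 16 other histone methyltransferases 4 were lower, with the lowest p in Prmt1 (-0.38), Nsd2 (-0.44) and Dot1l (-0.60), called under 0, 1 and 1 of the other 4 scalings. The 13 INO80, SRCAP and TIP60 genes had 3 lower: Ruvbl1 (-0.48), Ino80 (-0.39) and Ino80c (-0.31), of which Ruvbl1 was called under 1 of the other 4 scalings and the other two under 0. None of these last 4 lists (acetyltransferases, methyltransferases, sirtuins and remodelers) held a called rise, where 4.87% of all genes were called higher. In either direction 41.7%, 25%, 50% and 23.1% of these lists were called, and 50% of the DNA methylation list. Of all genes tested 28.7% were.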

How the data were processed

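RNA-Seq was available for 6 libraries, 3 per treatment. The authors made stranded libraries, mapped the reads with hisat2 (GRCm38), estimated transcript levels by StringTie and Ballgown, and deposited 1 table of FPKM per protein-coding gene. The table names no unit. FPKM is inferred from Ballgown and from values with decimals, and no count model was run. Low values (under 0.3 FPKM) showed no common step worth 1 read, since no more than 2.62% of genes had the same ratio between any 2 libraries, and read depth is therefore unknown. No normalization between libraries is given in the sources used here.

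Genes averaging 1 FPKM or more (8816 of 10995) were taken to log2(FPKM + 1) and fitted by limma 3.58.1 in R 4.3.3 (empirical Bayes with trend, no covariate) over all 6 libraries, with Benjamini-Hochberg adjustment over all genes tested. Fold changes on this scale understate the change of genes with low FPKM. Ratios within libraries were compared by exact permutation tests (scipy 1.17.1). Loci are those of the deposited table, and all 74 members matched a RefSeq symbol. The method was tested on data simulated from the mean level and spread of each gene, with independent noise and no shift between libraries. Of 200 genes changed by 0.5 on the log2 scale 39% were recovered, and 90% when changed by 1. Among unchanged genes 3 and 10 were then called. Only 200 of 8816 genes were changed there, whereas 28.7% were called in the data. The adjustment then sets a different cut on p, so the shares recovered need not hold for the data. A member without a call may still differ.

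Named genes were the 12 called members with the largest changes and groups that did not overlap, the member of each class with the lowest p and that with the highest level, a fixed list of related members, and up to 3 called genes per partner list. Genes named beside them complete a class or a count. Some genes that met this rule are not reported here. Members and lists were chosen with earlier results of these data known. Alternatives changed the scaling (quantile, median, Actb, cyclic loess), filter, pseudocount, variance model, call rule, replicate block and libraries.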

Additional observations from a re-analysis of the deposited data

How the results depend on the processing

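The count of 16 lower members became 9 with quantile normalization, 7 with median centring, 8 when scaled to Actb and 9 with cyclic loess normalization, and 7 at an unadjusted p under 0.05 with a log2 fold change beyond 0.5. The count of 3 higher members became 11 with median centring and 1 at that limit. With no moderation of the variance limma called 0 members lower and 0 higher (12 of all genes tested), although 17 lower and 5 higher had an unadjusted p under 0.05. Leaving out each replicate gave 4 (without anti–VEGF-B replicate 3) to 19 lower and 1 to 5 higher. The median log2 fold change of members moved from -0.14 to 0.0055, 0.064 and 0.0064 with quantile normalization, median centring and cyclic loess, and that of all genes tested from -0.15 to 0.0077, 0.049 and 0.0019. Causes were not tested. Other filters, pseudocounts and the fit without trend left 12 to 16 lower and 2 or 3 higher.

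Same-numbered libraries had correlations of deviations of -0.0296, 0.11 and 0.0891, so the numbers were not taken to pair the samples, nor did each library correlate best with its own number. The fit with a replicate block called 19 members lower and 3 higher.

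Of 692 values of 41 named members under alternatives, 528 kept direction and side of the threshold, 118 lost the call and 14 gained one. The other 32 changed sign, all in 11 members that were not called. Another filter, variance model, call rule or replicate block leaves the fold change as it is, so the sign could not change there. With median centring the sign changed for Hdac3 (0.023), Smarca5 (0.045), Setd2 (0.073) and Kmt2e (0.11). Under quantile normalization, median centring and cyclic loess it changed for Kdm5a (0.024, 0.13 and 0.0094). Under quantile normalization, median centring, Actb and cyclic loess it changed for Tet3 (0.10, 0.16, 0.018 and 0.096), Smarca2 (0.19, 0.16, 0.0099 and 0.18) and Kdm5c (0.042, 0.18, 0.048 and 0.017). Leaving out each replicate spanned -0.11 to 0.079 for Tet1, -0.14 to 0.038 for Tet3, -0.13 to 0.15 for Kmt2d, -0.086 to 0.11 for Kdm6a, -0.13 to 0.027 for Smarca2 and -0.11 to 0.080 for Kdm5c. FPKM carry no depth, so how far counting error limits these values is unknown.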
